A study of Mus musculus with 6 samples.

Results

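MiR-802, miR-103 and miR-107 are miRNAs known for impairing insulin signalling in the obese liver. Of their mature forms, 4 were chosen by name: mmu-miR-802-5p and mmu-miR-802-3p, the opposite arms of one hairpin, and the near-identical mmu-miR-103-3p and mmu-miR-107-3p. All 4 are among the 1546 mature mouse miRNAs listed, and all 4 passed the filter that left 501 miRNAs to be compared. Small RNA was sequenced from livers of male C57BL/6 mice, 8 weeks old at purchase and then fed for 16 weeks. The NC group received a normal diet and the MAFLD group a high-fat diet, and both were fasted for 6 hours before sacrifice. The diets were given to 6 mice each, and 3 libraries per group were analysed. No transgene, drug or pooling of livers is described, and nothing beyond the replicate number tells whether these are separate mice, so the p-values measure the spread between these libraries.

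A miRNA binds messenger RNAs mainly through its seed, bases 2 to 8 from its 5′ end, and lowers their translation or stability. In mice, forced expression of miR-802 in liver is known to impair glucose tolerance. MiR-103 and miR-107 are known to repress caveolin-1, a membrane protein that stabilises the insulin receptor, and silencing them improves insulin sensitivity in obese mice. One arm of a miRNA hairpin is usually kept as the guide, and the other, the passenger arm, is usually degraded.

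The mature sequences of all 4 miRNAs are shown because the seeds set which of them can share targets, and because a single base decides which name a read of miR-103 or miR-107 receives. MiR-16-5p, an abundant relative with an offset seed, is added for comparison. The sequences are from RefSeq (GRCm38.p6), run 5′ to 3′, and carry the seed in capitals.
miR-802-5p: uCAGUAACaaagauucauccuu
miR-802-3p: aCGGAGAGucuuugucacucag
miR-103-3p: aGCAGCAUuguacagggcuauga
miR-107-3p: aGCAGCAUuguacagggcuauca
miR-16-5p: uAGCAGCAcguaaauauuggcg

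MiR-103-3p and miR-107-3p have the same seed, and no other of 1679 mature mouse miRNAs in RefSeq has it. The seeds of both miR-802 arms were found in no other of these 1679. Of the 1546 miRNAs listed, 1312 were matched by name to a sequence there, and the rest were not searched. Along their 23 bases, miR-103-3p and miR-107-3p differ only by G22C (miR-103-3p first, counted from 1 at the 5′ end), the base before the last. A read that ends before base 22, or that was matched with a mismatch there, cannot be told apart between the names. How such reads were assigned is not given in the sources used here.

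The hairpin Mir802 (ENSMUSG00000076457.1) lies on the plus strand of chromosome 16 of GRCm38 from 93369720 to 93369816, and no other annotated gene of GENCODE M21 overlaps it. The nearest protein-coding genes are Setd4, 214 kb away, and Runx1, 544 kb away. MiR-103-3p is made from 2 hairpins with the same mature sequence. Mir103-1 lies on chromosome 11 from 35782396 to 35782481 and Mir103-2 on chromosome 2 from 131288052 to 131288137, both on the plus strand. Mir107 lies on the minus strand of chromosome 19 from 34820687 to 34820773. Each of these 3 hairpins sits, in the sense direction and without touching an annotated exon, inside a pantothenate kinase gene: Pank3 for Mir103-1, Pank2 for Mir103-2 and Pank1 for Mir107. These kinases catalyse the first step of coenzyme A synthesis, and which of the 2 Mir103 hairpins gave a read of miR-103-3p cannot be told from its sequence.

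Levels are given in CPM, the reads of a miRNA as a share of those on all listed miRNAs, scaled to a sum of 1000000 in each library. The libraries held between 1336935 and 4685712 such reads, recovered from the deposited CPM, so that a limit of detection of 3 reads corresponds to 0.640 to 2.24 CPM. All libraries carried the defining miRNAs of liver, with miR-122-5p, miR-122-3p, miR-192-5p and miR-194-5p summing to between 102722 and 176512 CPM. NC replicates 1 and 2 stood apart: 4 brain miRNAs (miR-9-5p, miR-9-3p, miR-124-3p and miR-128-3p) summed to 463 and 744 CPM there and to between 44.2 and 63.9 CPM in the other 4 libraries. The same 2 libraries had the largest shares of miR-148a-3p, 71.4% and 63.3% of reads, against 46.8% to 56.7% in the others. A larger share of this miRNA leaves a smaller sum of CPM for all others together, though single ones, such as these brain miRNAs, can still be higher.

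MiR-802-5p rose in MAFLD livers and was the only member, and the only miRNA of all 501, past an adjusted p of 0.05. It was at 16.1, 13.4 and 39.6 CPM in NC replicates 1, 2 and 3, from 41, 21 and 53 reads. In the MAFLD livers it was at 141, 100.3 and 152 CPM, from 377, 470 and 234 reads. The groups did not overlap, and the lowest MAFLD liver was 2.53 times the highest NC liver. The means were 23.0 ± 14.4 CPM in NC and 131 ± 27.5 CPM in MAFLD (SD, n = 3 each). On the log2 scale the difference was 2.60 ± 0.47 (estimate ± standard error, adjusted p = 0.0263 by limma on log2(CPM + 1) with Benjamini-Hochberg adjustment over the 501), which is 6.05-fold with a 95% confidence interval of 3.03 to 12.1. Over all 501 miRNAs the share called higher at this threshold was 0.2%, and 0% were called lower, while DESeq2 called 7 higher and 21 lower. The call of miR-802-5p was lost when NC replicate 1, NC replicate 2, MAFLD replicate 1 or MAFLD replicate 2 was left out (adjusted p from 0.0514 to 0.206 by limma).

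The place of miR-802-5p among the miRNAs of its own library, which no scaling between libraries can move, differed as well. Ordered from the most abundant, it was in position 165, 199 and 149 in the NC livers and in position 92, 88 and 95 in the MAFLD livers. Per 1000 reads of miR-122-5p, the miRNA typical of hepatocytes, there were 0.381, 0.246 and 0.466 reads of miR-802-5p in NC livers. In MAFLD livers there were 2.01, 1.82 and 2.25. MiR-122-5p itself varied, at 42159, 54430 and 85150 CPM in NC replicates 1, 2 and 3. In MAFLD replicates 1, 2 and 3 it was at 70527, 55196 and 67758 CPM. The groups were apart on both scales, which were chosen after the values were seen.

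**Figure D1:**
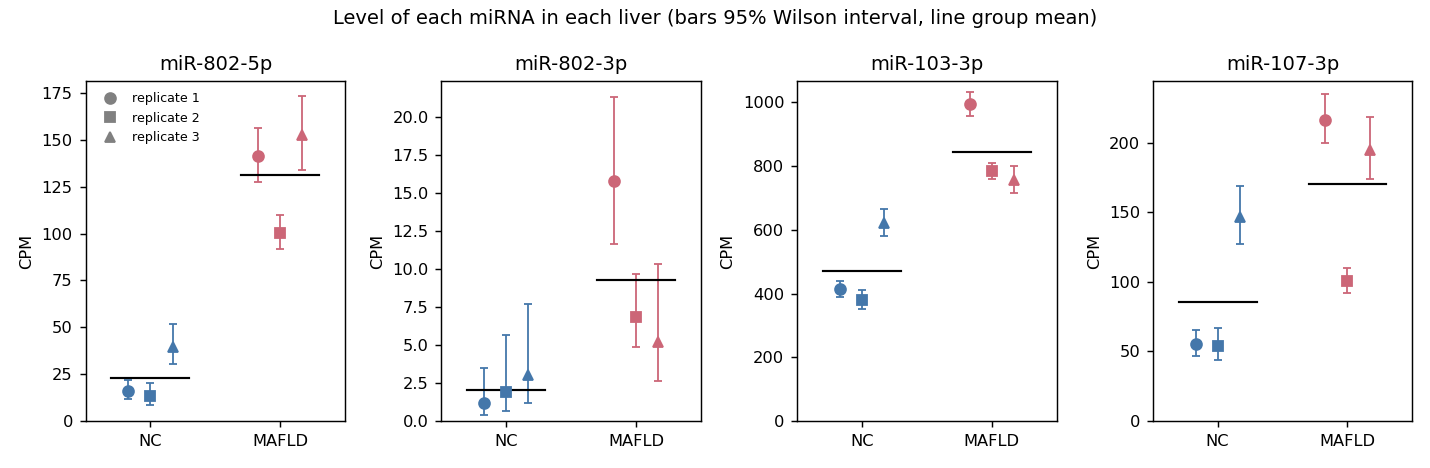
CPM of miR-802-5p, miR-802-3p, miR-103-3p and miR-107-3p in each of the 3 NC (blue) and 3 MAFLD (red) livers, with linear axes from 0, 95% Wilson intervals for counting error and a line at each group mean. For miR-802-5p the NC livers lie at 13.4 to 39.6 CPM and the MAFLD livers at 100.3 to 152 CPM, while for miR-107-3p NC replicate 3 lies above MAFLD replicate 2.

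MiR-802-3p, the passenger arm, was scarce. NC livers gave 3, 3 and 4 reads, or 1.18, 1.91 and 2.99 CPM, close to the limit of 3 reads. MAFLD livers gave 42, 32 and 8 reads, or 15.8, 6.83 and 5.21 CPM. Each MAFLD liver had more than each NC liver, but the 95% Wilson interval of MAFLD replicate 3 (2.64 to 10.3 CPM) overlapped with that of NC replicate 3 (1.16 to 7.69 CPM). These intervals cover counting error only. The log2 difference of 1.67 ± 0.57 (estimate ± standard error) did not pass the threshold (adjusted p = 0.199 by limma, 0.00964 before adjustment). With the reads of each group added up, 10 in NC and 82 in MAFLD, the rate in MAFLD was 5.03 times that in NC (exact 95% counting interval 2.60 to 10.9). It was 3.51 times without MAFLD replicate 1, which gave most of these reads.

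The proportion of the miR-802 arms overlapped between the diets. MiR-802-3p made up 6.82%, 12.5% and 7.02% of the reads of both arms in NC livers and 10.02%, 6.37% and 3.31% in MAFLD livers. With 3 or 4 reads of the 3p arm in each NC liver the intervals there were wide (for NC replicate 2, 4.34% to 31.0%). The log2 ratio of 5p to 3p reads, with 0.5 reads added to each, was 3.25 ± 0.55 in NC and 3.93 ± 0.82 in MAFLD (SD, n = 3 each), a difference of 0.68 (standard error 0.57, two-sided exact permutation test, p = 0.4, where 0.1 is the smallest that this design allows).

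MiR-103-3p was the most abundant of the 4 miRNAs in every library. It was at 415, 379 and 622 CPM in the NC livers and at 995, 785 and 757 CPM in the MAFLD livers. The groups did not overlap, with NC replicate 3 the nearest to the MAFLD livers. The log2 difference of 0.86 ± 0.34 (estimate ± standard error) did not pass the threshold (adjusted p = 0.212 by limma, 0.0221 before adjustment). In order of abundance, miR-103-3p stood in position 41, 44 and 44 in the NC livers and in position 41, 41 and 44 in the MAFLD livers. Unlike for miR-802-5p, the positions of the 2 groups were nearly the same.

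MiR-107-3p was at 55.3, 54.2 and 147 CPM in the NC livers and at 216, 100.3 and 195 CPM in the MAFLD livers. NC replicate 3 was above MAFLD replicate 2, so the groups overlapped. The log2 difference of 1.08 ± 0.47 (estimate ± standard error) did not pass the threshold either (adjusted p = 0.247 by limma, 0.0370 before adjustment). Its positions in order of abundance were 104, 115 and 90 in NC livers and 74, 88 and 79 in MAFLD livers.

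MiR-107-3p made up 11.8%, 12.5% and 19.1% of the reads of miR-103-3p and miR-107-3p together in the NC livers, and 17.9%, 11.3% and 20.5% in the MAFLD livers. NC replicate 3 was above MAFLD replicates 1 and 2, so the groups overlapped. Between the diets, the log2 ratio of miR-103-3p to miR-107-3p was 2.59 ± 0.45 in NC and 2.37 ± 0.53 in MAFLD (SD, n = 3 each), a difference of −0.22 (standard error 0.40, two-sided exact permutation test, p = 0.8). The difference was smaller than the spread between livers, and 3 livers against 3 cannot give a p below 0.1 in this test.

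**Figure D2:**
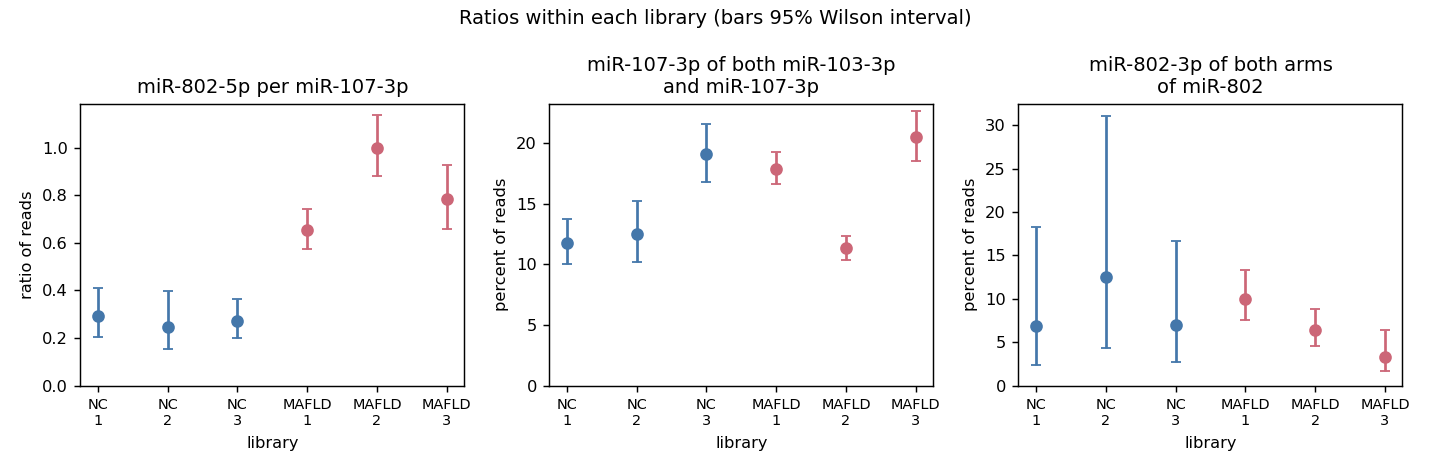
Reads of miR-802-5p per read of miR-107-3p (left), the percent of miR-107-3p among reads of miR-103-3p and miR-107-3p (middle) and the percent of miR-802-3p among reads of both miR-802 arms (right), in each NC (blue) and MAFLD (red) library with 95% Wilson intervals. The ratios on the left are 0.247 to 0.291 in NC and 0.653 to 1.00 in MAFLD, whereas in the other panels the groups overlap.

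The level of miR-802-5p relative to either twin was higher in every MAFLD liver than in every NC liver. There were 0.291, 0.247 and 0.270 reads of miR-802-5p per read of miR-107-3p in the NC livers, and 0.653, 1.00 and 0.783 in the MAFLD livers. In MAFLD replicate 2 both were read 470 times. Within the NC livers the 3 ratios lay close together, although NC replicate 3 had the highest CPM of both. They rest on only 41, 21 and 53 reads of miR-802-5p, and their spread was narrower than counting error. In NC replicate 2, miR-107-3p made up 80.2% of the reads of both (95% Wilson interval 71.6% to 86.7%). The small NC spread also enters the standard error given next. The difference in the log2 ratio was 1.56 (standard error 0.19), and for miR-802-5p relative to miR-103-3p it was 1.78 (standard error 0.33). In neither ratio did the groups overlap (p = 0.1 each in a two-sided exact permutation test, the smallest that 3 livers against 3 allow). These 2 ratios were added after the values were seen, and over the 4 ratios tested the Benjamini-Hochberg adjusted p was 0.2 for each of them, 0.533 for the miR-802 arms and 0.8 for miR-103-3p to miR-107-3p.

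By level, the order was miR-103-3p, miR-107-3p, miR-802-5p and miR-802-3p in the NC livers, with no overlap between neighbours. In the MAFLD livers the order of the means was the same, at 846 ± 130, 171 ± 61.8, 131 ± 27.5 and 9.27 ± 5.68 CPM (SD, n = 3). There, the ranges of miR-107-3p and miR-802-5p across livers overlapped. Within a library, miR-107-3p had more reads in MAFLD replicate 1 (577 against 377) and MAFLD replicate 3 (299 against 234). Both had 470 reads in MAFLD replicate 2. Adapters are not joined equally well to all sequences, so levels of different miRNAs are compared here only as reads.

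Most miRNAs (71.3% of the 501) had higher values in MAFLD livers, which bears on how these folds are read. The median log2 fold change over the 501 miRNAs was 0.43. Relative to this median, the log2 fold change was 2.17 for miR-802-5p, 1.24 for miR-802-3p, 0.65 for miR-107-3p and 0.43 for miR-103-3p. Among the 501, these 4 stood at percentiles 99.7, 98.1, 88.3 and 77.5 of the log2 fold change. At an unadjusted p under 0.05 all 4 were higher, where 13.4% of the 501 were higher and 4.59% lower, that is 67 and 23 miRNAs. With each library scaled by its median ratio, the split over the 501 was 36 higher and 45 lower. Of the 4, miR-103-3p alone then no longer passed (unadjusted p = 0.0854 by limma). For 3 of the 4 the groups did not overlap and MAFLD was higher, as for 15.2% of the 501, while 4.19% of the 501 did not overlap and were lower. The members are not independent of each other, being the arms of a hairpin and the near-identical miR-103-3p and miR-107-3p.

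**Figure D3:**
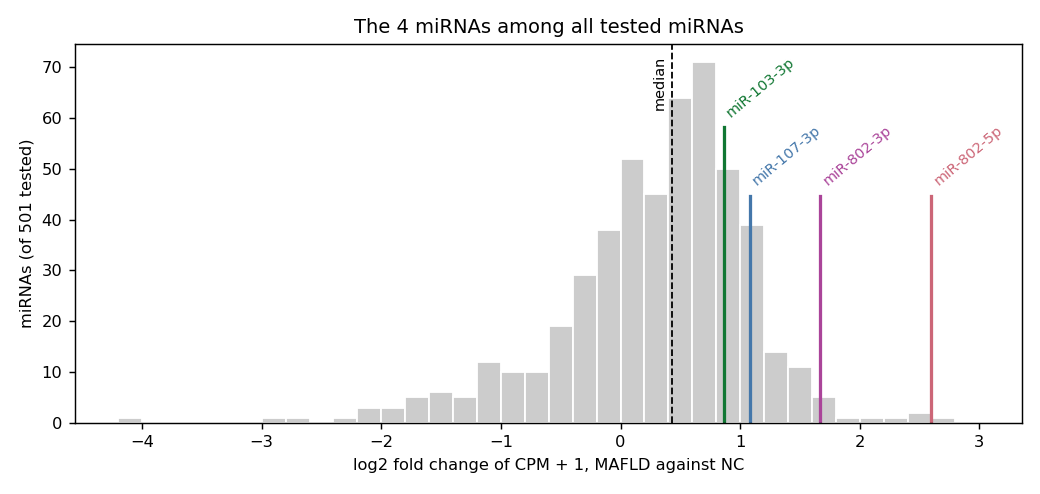
Histogram of the log2 fold changes of CPM + 1 (MAFLD against NC) of the 501 miRNAs tested, with the median as a dashed line and the 4 miRNAs as coloured lines. MiR-802-5p at 2.60 lies in the upper tail, and miR-103-3p at 0.86 lies within the bulk, 0.43 above the median.

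With median-ratio scaling the median of all miRNAs was 0.044. MiR-802-5p then had a log2 fold change of 2.15 (adjusted p = 0.00514 by limma), and that of miR-103-3p fell to 0.40 (adjusted p = 0.337) and that of miR-107-3p to 0.62 (adjusted p = 0.293). With counts in place of CPM, miR-802-5p had an adjusted p of 0.0152 by the quasi-likelihood test of edgeR and of 1.39e-09 by DESeq2, and no other member passed. For miR-802-5p the adjusted p was 0.0514 without NC replicate 1, 0.0982 without NC replicate 2, 0.206 without MAFLD replicate 1 and 0.0524 without MAFLD replicate 2, all by limma. Leaving out NC replicate 3 brought miR-802-3p (adjusted p = 0.0358), miR-103-3p (0.00974) and miR-107-3p (0.0119) below 0.05 by limma. That fit called 114 of the 501 miRNAs, 95 higher and 19 lower, beside 1 with all libraries. These calls are therefore not particular to the members.

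Against NC replicate 3 alone, the NC liver with the low sum of brain miRNAs, the 3 MAFLD livers had a mean log2 difference of 1.68 for miR-802-5p, 1.23 for miR-802-3p, 0.43 for miR-103-3p and 0.14 for miR-107-3p, where the median of all 501 was −0.024. In this comparison, in which the lone NC liver is assumed to vary like the MAFLD livers, none of the 4 passed, with miR-802-5p at an adjusted p of 0.143 by limma (0.00114 before adjustment). So miR-107-3p in this liver was near the level of the MAFLD livers, and miR-802-5p was not. NC replicate 3 stood apart in another list. Its 5 miRNAs of gut and kidney epithelium summed to 867 CPM, against 196 to 437 CPM in the other libraries. Of these, miR-200a-3p was at 571 CPM in NC replicate 3. The part of either list in these values was not tested.

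**Figure D4:**
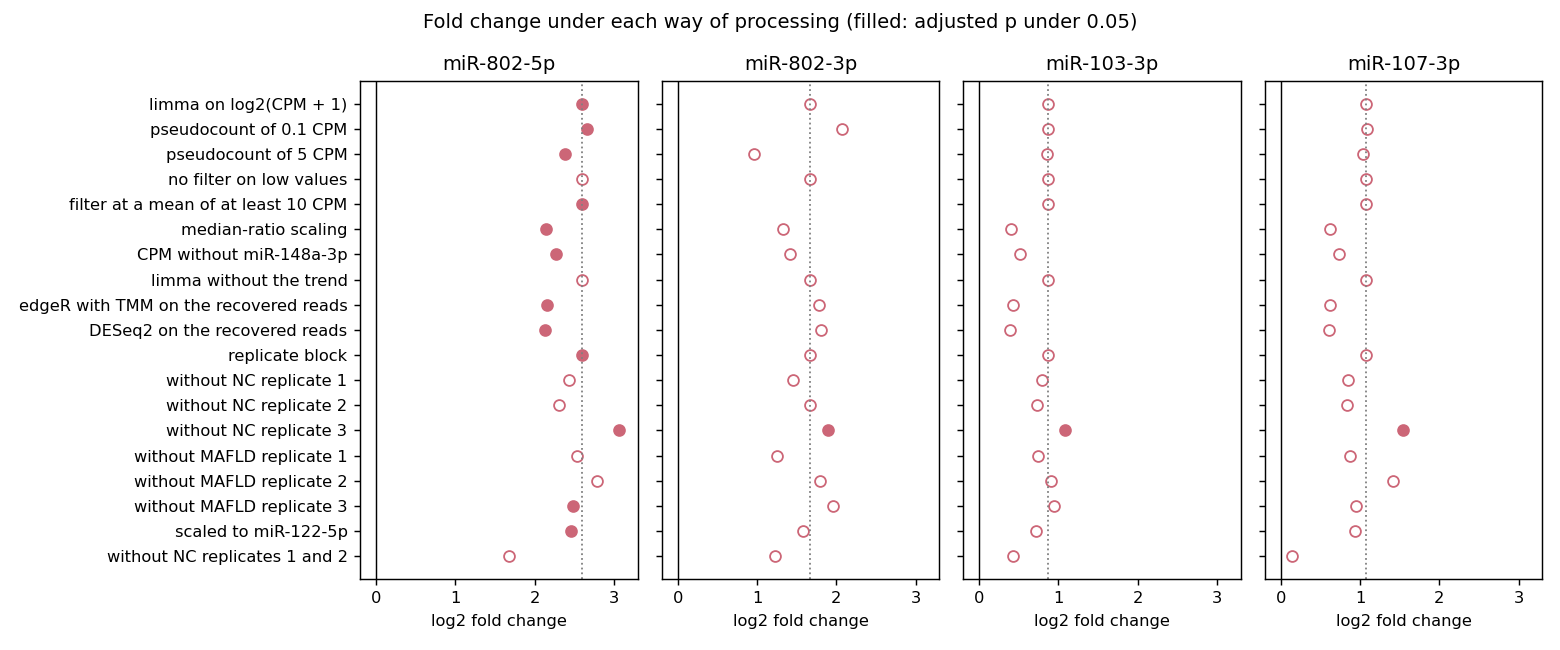
Log2 fold change of each of the 4 miRNAs (MAFLD against NC) under each way of processing, one row per setting, with filled circles for an adjusted p under 0.05 and open circles for a larger one. MiR-802-5p stays between 1.68 and 3.06, and the other 3 are filled only without NC replicate 3.

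Markers of other cells were set beside these values, since in bulk liver a change in the cells present and a change in RNA per cell cannot be told apart. The 2 endothelial miRNAs, miR-126a-3p and miR-126a-5p, summed to between 4710 and 6587 CPM in NC and between 7659 and 10155 CPM in MAFLD livers. Of these 2, miR-126a-3p was higher in every MAFLD liver and miR-126a-5p overlapped, and of the 4 hepatocyte miRNAs 2, miR-122-3p and miR-192-5p, were likewise higher in every MAFLD liver. Their part in the results was not tested. Of pancreas, where miR-802 is also made, 4 miRNAs (miR-216a-5p, miR-216b-5p, miR-217-5p and miR-375-3p) summed to between 1.57 and 6.73 CPM in NC and between 2.63 and 9.77 CPM in MAFLD livers, and miR-216a-5p was at 0 in 5 libraries. The summed lists for blood cells (6 miRNAs), stellate and mesenchymal cells (5), muscle (3) and gut and kidney epithelium (5) overlapped between the groups, as did each single miRNA in them. A sum can hide its scarcer miRNAs: in NC replicate 1, miR-143-3p made up 12080 of the 12612 CPM of the stellate and mesenchymal list. Single log2 fold changes went both ways, such as 0.87 for miR-199a-3p and −0.48 for miR-451a of blood cells.

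The passenger arms of miR-103 and miR-107 were nearly absent. MiR-103-1-5p, miR-103-2-5p and miR-107-5p were read at most 3 times in any library, and none reached a mean of 1 CPM. Only these 5p arms tell the 2 Mir103 hairpins apart, by A1G (miR-103-2-5p first, counted from 1 at the 5′ end), and miR-103-1-5p had 1 read in NC replicate 3, 1 in MAFLD replicate 1 and 0 elsewhere. A difference between the diets was not detectable at this depth.

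Other miRNAs reported to act on insulin signalling or liver metabolism were followed as a list of 20, of which 19 were tested and miR-499-5p was too scarce. Of the 19, 18 had higher values in MAFLD livers, beside 71.3% of all 501. An unadjusted p under 0.05 with higher values was seen for 8, beside 13.4% of the 501, and none passed the adjusted p by limma. The median log2 fold change was 0.84, beside 0.43 over all 501, and 6 of the 19 were higher without overlap between the groups (31.6%, beside 15.2%). Among the 238 miRNAs that averaged 10 CPM or more the median was 0.56. Of these 238, 52 were higher at an unadjusted p under 0.05 by limma. The list was chosen with earlier results of these data known. None of the 19 had a log2 fold change above that of miR-802-5p. MiR-34a-5p, a p53-induced miRNA that represses Sirt1, was at 38.7 ± 15.1 CPM in NC and 105 ± 34.1 CPM in MAFLD livers (SD, n = 3), with an adjusted p of 0.152 by limma. MiR-155-5p, an inflammatory miRNA, had a log2 fold change of 1.53 and miR-15b-5p one of 1.35.

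The let-7 miRNAs, which repress components of the insulin and PI3K-mTOR pathway, had log2 fold changes of 0.99 (let-7a-5p), 1.07 (let-7b-5p) and 0.84 (let-7c-5p). MiR-29a-3p had 0.93 and miR-378a-3p, which lies in an intron of Ppargc1b, had 0.93. These values are of the size of those of miR-103-3p and miR-107-3p. The 2 most abundant of the list differed little: miR-122-5p had a log2 fold change of 0.14 (adjusted p = 0.800 by limma) and miR-143-3p, which blocks insulin-stimulated AKT activation in obese liver, one of 0.049 (adjusted p = 0.9504 by limma).

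The miR-15 and miR-16 family is related to miR-103 and miR-107 by sequence. Its members carry GCAGCA, bases 2 to 7 of miR-103-3p and miR-107-3p, at bases 3 to 8 (searched in the mature strand only), as seen in miR-16-5p above. Of the 7 relatives followed, 6 hold it there and miR-503-5p does not, and of the 1679 mature miRNAs in RefSeq 0.596% do. In the insulin list above, 3 of the 7 were counted as well (miR-15b-5p, miR-195a-5p and miR-322-5p), so the counts of both lists are not separate. MiR-16-5p was at 393 ± 106 CPM in NC and 887 ± 151 CPM in MAFLD livers (SD, n = 3), a log2 difference of 1.19 with a standard error of 0.34 and an adjusted p of 0.152 by limma. MiR-195a-5p was at 38.4 ± 13.6 and 69.0 ± 14.1 CPM. Of the 7, 6 had higher values in MAFLD livers and 3 an unadjusted p under 0.05, beside 71.3% and 13.4% of the 501, and the median log2 fold change was 0.95, beside 0.43. Among the 238 miRNAs that averaged 10 CPM or more the median was 0.56.

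**Figure D5:**
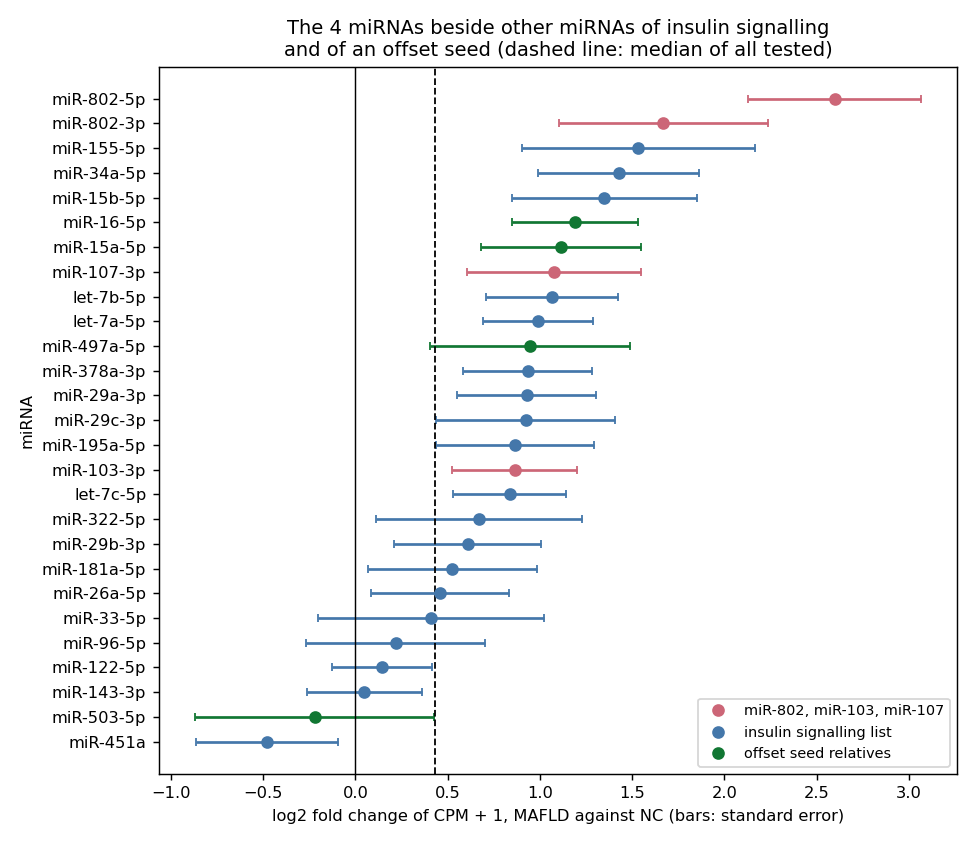
Log2 fold change of CPM + 1 (MAFLD against NC) with its standard error for the 4 miRNAs (red), the tested miRNAs of the insulin list (blue) and the offset-seed relatives (green), with the median of all 501 as a dashed line. The 3 relatives that are also in the insulin list are drawn in blue, and both arms of miR-802 stand above all others shown, while miR-103-3p and miR-107-3p lie among them.

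The miRNAs with the most similar pattern over the 6 libraries were found by the root mean square difference of log2(CPM + 1), each miRNA centred on its own mean, among the 237 others that averaged 10 CPM or more (238 for miR-802-3p, which lies below this level). For miR-802-5p the nearest was miR-3073b-3p, with a difference of 0.25 on the log2 scale, followed at a distance by miR-21c (0.60) and miR-351-5p (0.63). MiR-3073b-3p was at 3.14, 1.91 and 10.5 CPM in NC and 41.3, 18.1 and 29.3 CPM in MAFLD livers, with a log2 fold change of 2.49. The other arm, miR-802-3p, was farther from miR-802-5p, at 0.71. With 3 or 4 reads in each NC liver, its values are drawn in by the added 1 CPM. This distance therefore does not show that the arms differed in pattern, and their proportion overlapped between the diets.

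MiR-103-3p was nearest to miR-122-3p (0.075), miR-365-3p (0.089) and let-7c-5p (0.11). MiR-107-3p was nearest to miR-423-3p (0.12), miR-194-5p (0.17) and miR-191-5p (0.19). The twins were 0.41 from each other, and 84 of the other miRNAs were nearer to miR-107-3p than miR-103-3p was. The nearest to miR-802-3p were miR-34a-5p (0.34), let-7d-5p (0.37) and miR-378a-5p (0.40). These likenesses rest on the same 6 libraries and share their depth and scaling.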

How the data were processed

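For 1546 mature miRNAs the authors deposited CPM, with 1 column per library, mapped by name to 3 NC and 3 MAFLD livers. Per the labels, FastQC, cutadapt, Bowtie, edgeR and the build GRCm38 were named in the submitters' processing notes, without role or version. Total RNA was pretreated to remove modifications that block adapter ligation. Mismatch settings and the handling of reads that match several miRNAs are not given in the sources used here. Reads were recovered by dividing by the smallest value of each library, and 100% of values came within 0.02 of a whole number. The edgeR quasi-likelihood test called 1 miRNA on them and DESeq2 called 28.

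Groups were compared with limma 3.58.1 (trend) in R 4.3.3 on log2(CPM + 1), over the 501 miRNAs that averaged 1 CPM or more, with Benjamini-Hochberg adjustment. The added 1 CPM draws folds of scarce miRNAs towards 0. Alternatives used edgeR 4.0.16 with TMM, DESeq2 1.42.0 and other scalings, filters and pseudocounts. Ratios were compared by exact permutation in scipy 1.17.1. Named were the 4 members, their passenger arms, miRNAs of the insulin list with an unadjusted p under 0.05 or among its 2 most abundant, the 2 most abundant relatives with an offset seed, and the 3 nearest patterns. Members, lists and tests were chosen with earlier results of these data known. Sequences are from RefSeq (GRCm38.p6), where all 4 members matched. The scripts were tested on simulated data. The methods and growth notes on HepG2 cells do not concern these livers.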

Additional observations from a re-analysis of the deposited data

How the results depend on the processing

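The direction of all 4 log2 fold changes was the same in every alternative run. The threshold was passed by miR-802-5p in 11 of 18 tested alternatives, with adjusted p from 1.39e-09 to 0.553. It did not pass without the filter on low values (2.60, adjusted p = 0.553) and without the trend (2.60, adjusted p = 0.213), both by limma. Nor did it pass against NC replicate 3 alone (1.68, adjusted p = 0.143 by limma), where miR-103-3p was 0.43 and miR-107-3p 0.14. In fits without 1 library, miR-802-5p ran from 2.31 to 3.06, miR-802-3p from 1.25 to 1.96, miR-103-3p from 0.72 to 1.08 and miR-107-3p from 0.84 to 1.55, the last 3 passing only without NC replicate 3. The adjusted p of these 3 otherwise ran up to 0.747, 0.849 and 0.9994 by limma. MiR-802-3p ran from 0.96 with a pseudocount of 5 CPM to 2.07 with 0.1 CPM, and was not tested with a filter at 10 CPM. The ratio of the miR-802 arms and that of miR-103-3p to miR-107-3p each had the same sign in all 7 alternatives.

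The number of miRNAs past the adjusted p, 1 in all, was 0 without the filter and without the trend (105 and 74 at an unadjusted p under 0.05 by limma), 2 with median-ratio scaling, 2 without miR-148a-3p, 28 with DESeq2 (7 higher and 21 lower) and 28 when scaled to miR-122-5p (24 higher and 4 lower), an alternative chosen after seeing the data like the fit against NC replicate 3, where it was 0 (37 at an unadjusted p under 0.05). In fits without 1 library it ran from 0 to 114, with 114 without NC replicate 3 (95 higher and 19 lower), 3 without MAFLD replicate 3 and 0 without each of the others (40 to 89 at an unadjusted p under 0.05). With the replicate block it was 5, miR-802-5p stayed past the threshold (adjusted p = 0.0108 by limma) and the calls of the other 3 were the same. The deviations of livers with the same number correlated by −0.018 on average, so the numbers were not taken as pairs. The causes of these changes were not tested. Counting error limits miR-802-3p, with 3 or 4 reads in each NC liver.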

Other observations

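The share of miR-107-3p among the reads of miR-103-3p and miR-107-3p, which overlapped between the diets, can be set beside the share of miR-148a-3p in each library, a comparison chosen after the values were seen. In NC replicates 1, 2 and 3, where miR-107-3p made up 11.8%, 12.5% and 19.1%, miR-148a-3p took 71.4%, 63.3% and 48.5% of all reads. In MAFLD replicates 1, 2 and 3, where miR-107-3p made up 17.9%, 11.3% and 20.5%, it took 46.8%, 56.7% and 51.6%. MiR-103-3p and miR-107-3p differ at base 22 of 23, and the deposited values do not tell how long the reads were. Why the share of miR-107-3p varied was not tested. The reads of miR-802-5p per read of miR-107-3p were 0.247 to 0.291 in the NC livers, a spread narrower than counting error.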
